A study of Rattus norvegicus with 6 samples.

Results

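The receptors for dopamine, noradrenaline and adrenaline, serotonin, histamine and acetylcholine were examined in the prelimbic cortex (PL) of rats with neuropathic pain. The members were all genes on the mRNA array whose symbol, as the only symbol of a probe set, began with Drd, Htr or Hrh and a digit, or with Adra, Adrb, Chrm or Chrn. This gave 52 genes read by 71 probe sets, among 14217 genes and 31042 probe sets tested. They comprised 5 dopamine, 8 adrenergic, 14 serotonin, 4 histamine, 5 muscarinic and 16 nicotinic receptor genes. Where several probe sets read a gene, its value was their mean.

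The 3 samples of the SNI group came from male Sprague-Dawley rats, 6 to 7 weeks of age when acquired, 14 days after spared nerve injury. In this model the tibial and common peroneal branches of the left sciatic nerve are cut and the sural branch is left intact. The 3 samples labelled control came from rats of the same strain and sex. For tissue collection the methods give day 14 after surgery, without setting the groups apart. The methods describe a sham operation, with the nerves exposed and left uncut, but do not state that these controls had it. All 6 samples were contralateral PL tissue. Whether each sample was a rat of its own is stated in neither the methods nor the labels. The p-values therefore describe the scatter among these 6 samples, part of which could be technical.

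The PL is a part of the medial prefrontal cortex that takes part in pain-related emotion and control of behavior. It receives dopamine from the ventral tegmental area, noradrenaline from the locus coeruleus, serotonin from the raphe nuclei, histamine from the tuberomammillary nucleus and acetylcholine from the basal forebrain. Most of the receptors are coupled to G proteins and change the excitability of neurons slowly, through cyclic AMP, calcium or potassium channels. The 5-HT3 and nicotinic receptors are instead ion channels built of several subunits and open within milliseconds. The mRNAs measured here are those made in cells of the PL, whereas receptors on the incoming axons are made from mRNA in the distant nuclei.

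In the deposited log2 values, every probe set had been shifted so that its median over the 6 samples was 0. A value of 0 is therefore the middle of the samples for that probe set, and no level of a receptor mRNA, and no order of levels between receptors, could be read. For the same reason the presence of marker genes of the tissue could not be checked. When the groups of a probe set do not overlap, the SNI and the control sample that are nearest to each other lie at equal distances from 0. Scatter was wider among control samples, whose SD exceeded that of the SNI samples for 40 of the 52 receptor genes (76.9%) and for 70.6% of all genes. On the first principal component, control samples 1 and 3 stood apart (21.9 and 16.04), whereas the SNI samples (−11.3 to −9.81) and control sample 2 (−6.18) lay together. The hybridization controls, which are spiked-in bacterial transcripts, were 0.27 higher on the SNI arrays. Their means were 0.054 to 0.19 on the SNI arrays and −0.22 to −0.047 on the control arrays, without overlap. A fit with this mean as a covariate can therefore hardly separate the group difference from that of the hybridization controls. In bulk tissue, fewer cells of a type and less RNA per cell cannot be told apart.

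None of the 52 receptor genes passed an adjusted p of 0.05 (limma, two-sided, Benjamini-Hochberg adjustment over 14217 genes), and the smallest adjusted p was that of Adra1b (0.164). The background share of all genes past that threshold was 0%. At an unadjusted p under 0.05, 5 receptor genes passed, which is 9.62% of the members against 13.2% of all genes. Of these 5, 1 was higher in the SNI group, Chrm4 (1.92% of the members, against 3.96% of all genes), and 4 were lower, Adra1b, Htr1a, Htr1f and Chrna4 (7.69%, against 9.19%). An unpaired t-test on the same values called 0 receptor genes after adjustment and 4 at an unadjusted p under 0.05. The methods name that test for statistics in general and limma for the arrays. Of the 52 members, 7 had groups that did not overlap (13.5%), against 20.1% of all genes. SNI samples lay above control samples for 1 of the 7 (6.39% of all genes) and below them for 6 (13.7% of all genes). In the main comparison the receptors were thus called no more often than the genes of the array at large. Their median log2 difference, SNI group minus control group, was −0.023, against −0.011 for all genes, and 29 of them lay below 0 (55.8%, against 54.8%).

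The precision was set by the 3 arrays of each group. The median 95% confidence interval of a receptor gene reached 0.18 to either side of its log2 difference. For 51 of the 52 genes the interval lay within a change of 1.5-fold (0.58 on the log2 scale), and the exception was Chrna5. The same held for 98% of all genes. Whether each probe set read its mRNA above background could not be judged, so a narrow interval does not by itself exclude a larger change.

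**Figure D1:**
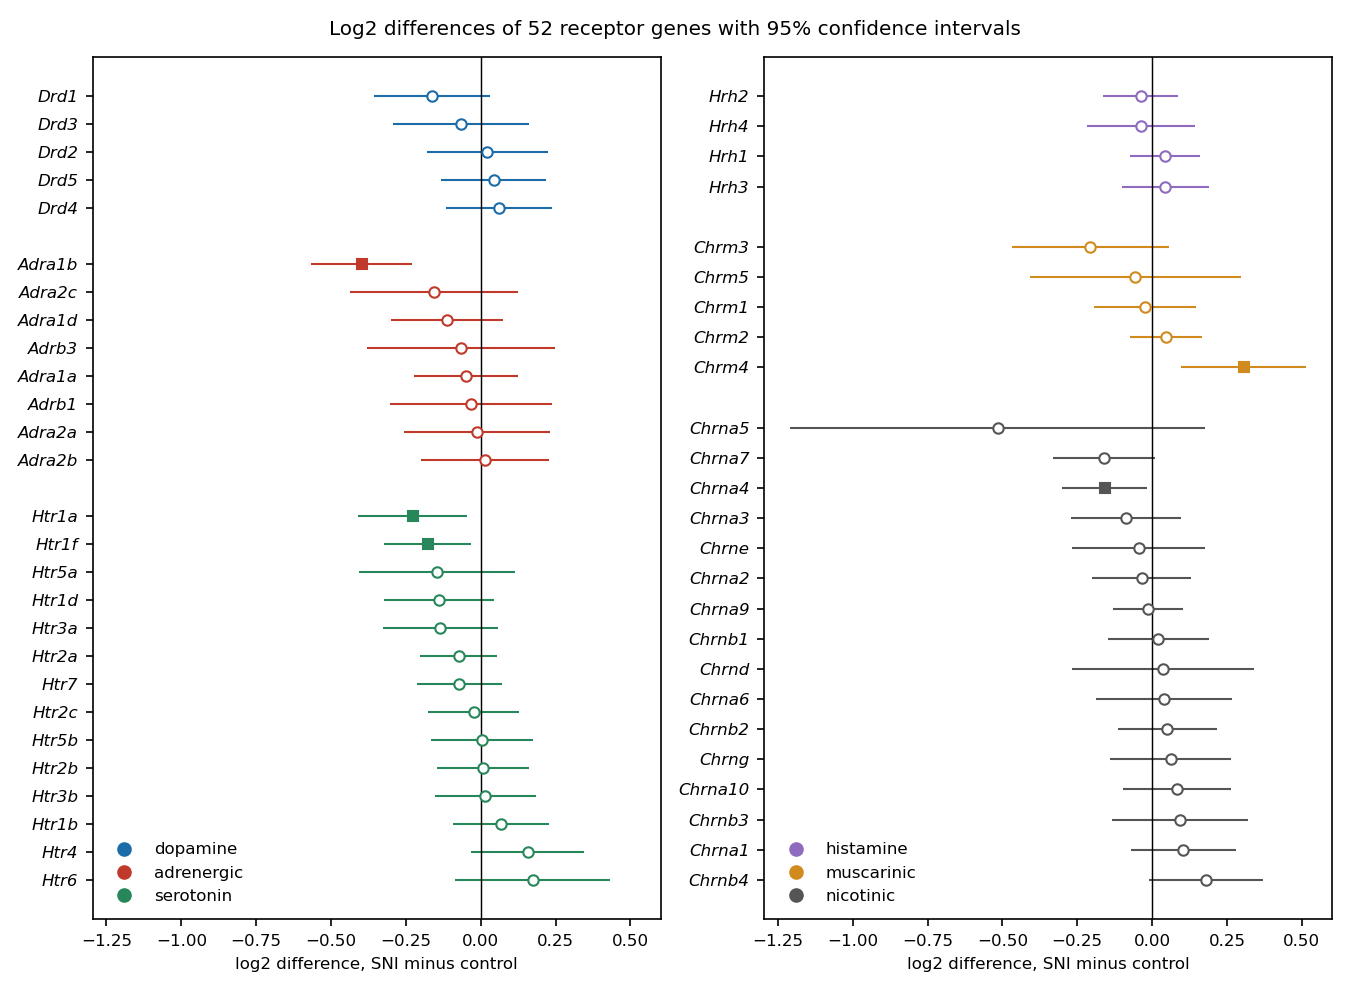
SNI minus control log2 difference (x axis) for each of the 52 receptor genes (y axis), grouped by transmitter. Points are limma estimates from 3 samples a group, lines are 95% confidence intervals, and filled squares mark an unadjusted p under 0.05; Adra1b lies at −0.40 and Chrm4 at 0.31, and most intervals cross 0.

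By transmitter system, the medians of the log2 difference lay close to that of all genes. They were 0.022 for dopamine receptors, −0.057 for adrenergic receptors, −0.047 for serotonin receptors, 0.0034 for histamine receptors, −0.023 for muscarinic receptors and 0.028 for nicotinic receptors. The 4 histamine receptors spanned −0.038 to 0.045, and the 5 dopamine receptors −0.16 to 0.062. Nicotinic receptors spanned −0.52 to 0.18, with Chrna5 alone at the lower end, and muscarinic receptors −0.21 to 0.31. Of the adrenergic receptors, 7 of 8 lay below 0, as did 8 of 14 serotonin receptors and 7 of 16 nicotinic receptors. The adrenergic median was 0.015 without control sample 2. Genes of a system are not replicates, so no test between the systems was made.

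Over all receptors, the control samples lay farther apart than the SNI samples. SNI samples 1, 2 and 3 had medians over the 52 receptor genes of 0.0018, 0.0019 and −0.015, against −0.067, 0.086 and 0.0072 for control samples 1, 2 and 3. Control samples 1 and 2 thus lay on either side of all SNI samples. Control sample 1 was the lowest of the 6 samples for 23 of the 52 genes (44.2%, against 23.8% of all genes). Control sample 2 was the highest for 23 (44.2%, against 25.7% of all genes). Among nicotinic receptors, control sample 1 was lowest for 10 of 16 genes and control sample 2 highest for 8. The medians of the nicotinic genes were −0.011 to 0.021 in the SNI samples, against −0.096 in control sample 1 and 0.093 in control sample 2. Those of the adrenergic genes were −0.053 to 0.010 in the SNI samples, against −0.12 in control sample 1 and 0.13 in control sample 2.

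**Figure D2:**
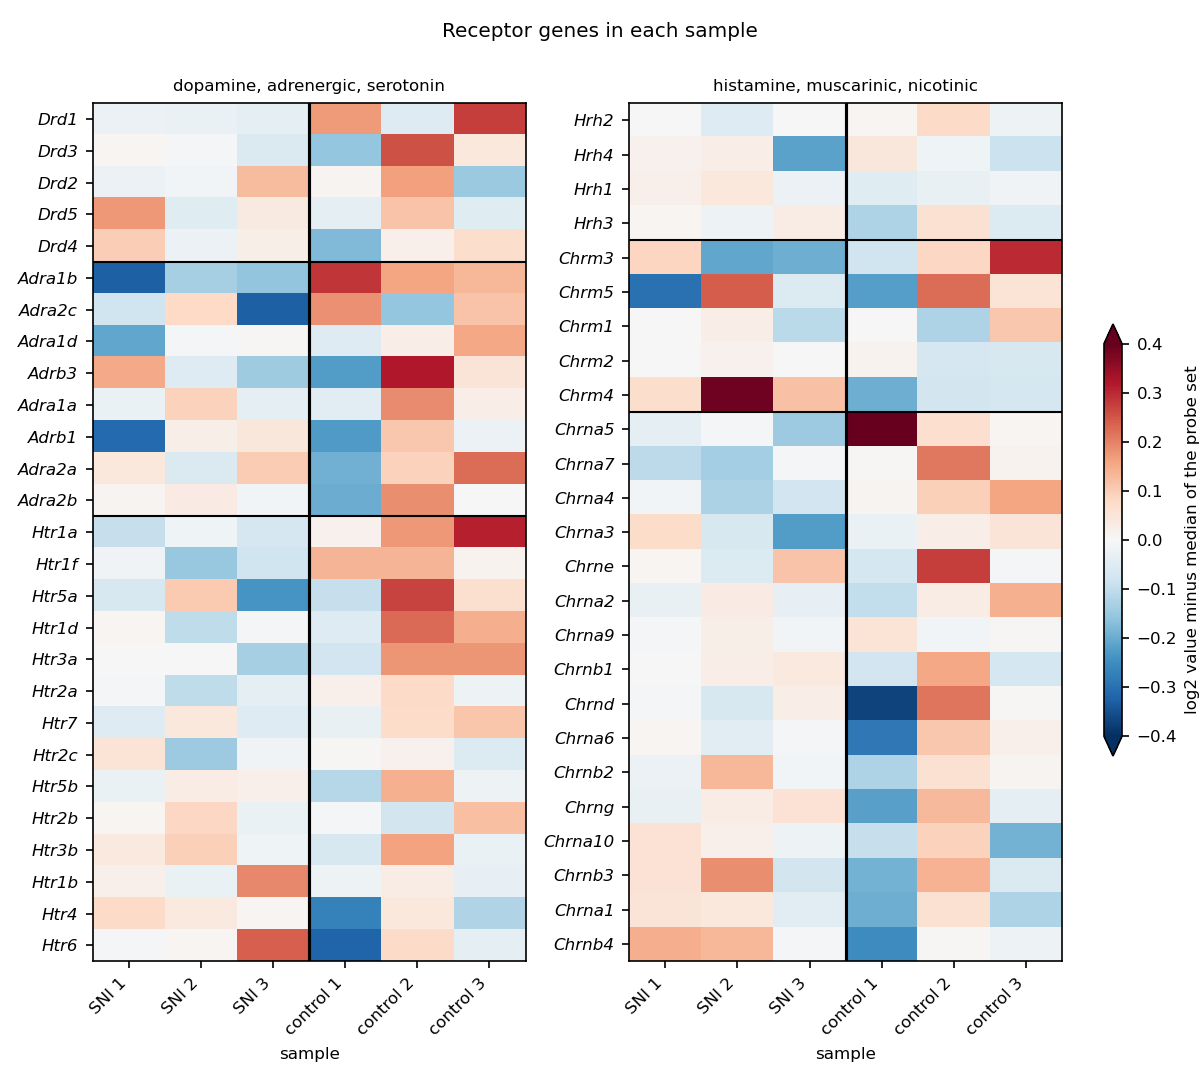
Log2 value minus the median of the probe set (color; values past 0.4 in size share the end color) for the 52 receptor genes (rows, by transmitter) in the 3 SNI samples and the 3 control samples (columns). Control sample 1 is the lowest sample for 23 genes and control sample 2 the highest for 23.

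Adra1b was the receptor gene with the smallest p. It encodes the alpha-1B adrenergic receptor, which is coupled to Gq and raises calcium in response to noradrenaline. SNI samples 1, 2 and 3 were at −0.33, −0.13 and −0.16, against 0.28, 0.16 and 0.13 for control samples 1, 2 and 3. Every SNI sample lay below every control sample, with a gap of 0.27 between the nearest samples, which was the widest gap of any member and compares with a median gap of 0.045 over all genes without overlap. The log2 difference was −0.40 (SE 0.073, 95% confidence interval −0.57 to −0.23, adjusted p = 0.164), a level 0.759 times that of the control group. Adra1b was read by 1 probe set, so the alternatives for probe sets could not change this difference. With the hybridization controls as a covariate, limma gave −0.41, with an unadjusted p of 0.048 and an adjusted p of 0.589. The unadjusted p stayed under 0.05 in each of the 15 alternative settings, and the difference ranged over −0.43 to −0.34 in them.

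The other alpha-1 receptors did not show differences of that size. Adra1d, a Gq-coupled receptor like Adra1b, was at −0.21, −0.0037 and 0.0037 in the SNI samples, and −0.051, 0.026 and 0.16 in the control samples, with overlapping groups. The difference was −0.11 (SE 0.081, adjusted p = 0.610). Adra1a was at −0.048 (SE 0.075, adjusted p = 0.835). Among the alpha-2 receptors, which are coupled to Gi and act as autoreceptors and as postsynaptic receptors of prefrontal neurons, Adra2a had a log2 difference of −0.012 (95% confidence interval −0.26 to 0.23). Its control samples spread over −0.19 to 0.22 and enclosed the SNI samples (−0.059 to 0.10). The beta-1 receptor Adrb1, coupled to Gs, was at −0.31, 0.024 and 0.045 in the SNI samples and at −0.23, 0.11 and −0.024 in the control samples. This gave a log2 difference of −0.033 (95% confidence interval −0.30 to 0.24). For both genes the spread within a group was larger than the difference between groups.

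Chrm4 was the only receptor gene higher in the SNI group at an unadjusted p under 0.05. It encodes the M4 muscarinic receptor, which is coupled to Gi and lowers cyclic AMP in response to acetylcholine. SNI samples 1, 2 and 3 were at 0.072, 0.39 and 0.12, against −0.20, −0.074 and −0.072 for control samples 1, 2 and 3. All SNI samples lay above all control samples, with SNI sample 2 well above the others. The log2 difference was 0.31 (SE 0.090, 95% confidence interval 0.098 to 0.51, adjusted p = 0.238), a level 1.24 times that of the control group. Without SNI sample 2 the difference was 0.21 and without control sample 1 it was 0.27, both with an unadjusted p under 0.05. Of the 15 alternatives, only leaving out control samples 1 and 3 together took the unadjusted p over 0.05, with a difference of 0.27. With the hybridization controls as a covariate the difference was 0.63.

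The other muscarinic receptors had differences of both signs. Chrm3, a Gq-coupled receptor read by a pair of probe sets, had a log2 difference of −0.21 (SE 0.11, adjusted p = 0.491). Its values were 0.087, −0.21 and −0.20 in the SNI samples and −0.079, 0.082 and 0.30 in the control samples, so SNI sample 1 lay within the control range. Without SNI sample 1 or control sample 1 the difference was −0.30, with an unadjusted p under 0.05. The probe sets of Chrm3 gave −0.22 and −0.19. Chrm1, the main muscarinic receptor of cortical pyramidal neurons, was at −0.0025, 0.028 and −0.11 in the SNI samples and 0.0025, −0.12 and 0.11 in the control samples. Its log2 difference was −0.023 (95% confidence interval −0.19 to 0.15), and neither group stood above the other.

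Both serotonin receptor genes with an unadjusted p under 0.05 belong to the 5-HT1 receptors, which are coupled to Gi and dampen neuronal firing or transmitter release. Htr1a, which acts as a somatodendritic receptor on cortical neurons and as an autoreceptor in the raphe, was at −0.092, −0.019 and −0.068 in SNI samples 1, 2 and 3, against 0.019, 0.17 and 0.31 in control samples 1, 2 and 3. The groups did not overlap, but the nearest samples were only 0.037 apart. Its log2 difference was −0.23 (SE 0.079, 95% confidence interval −0.41 to −0.046, adjusted p = 0.294). Htr1f was at −0.015, −0.15 and −0.080 in SNI samples 1, 2 and 3, against 0.14, 0.14 and 0.015 in control samples 1, 2 and 3. Again the groups were separate, by 0.030. The log2 difference was −0.18 (SE 0.063, 95% confidence interval −0.32 to −0.032, adjusted p = 0.303).

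Neither 5-HT1 difference was as stable as that of Adra1b. For Htr1a the unadjusted p exceeded 0.05 in 5 of the 15 alternatives. These were the hybridization controls as a covariate (0.069) and the unpaired t-test. The others left out control sample 3 (−0.16), SNI sample 1 (−0.21) or SNI sample 3 (−0.22). For Htr1f the unadjusted p exceeded 0.05 in 4 of the 15 alternatives, those without SNI sample 2, SNI sample 3, control sample 1 or control sample 2. With the covariate Htr1f was at −0.34. Of the other 5-HT1 genes, Htr1d was at −0.14 (SE 0.080) and Htr1b at 0.069 (SE 0.069), so 3 of the 4 lay below 0.

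Htr2a and Htr2c, the Gq-coupled receptors through which serotonin excites cortical neurons and which several antipsychotic drugs block, had small differences as means of their probe sets. Htr2a was at −0.0067, −0.10 and −0.040 in the SNI samples and 0.019, 0.077 and −0.022 in the control samples, a log2 difference of −0.074 (95% confidence interval −0.20 to 0.055, adjusted p = 0.629). Htr2c was at 0.055, −0.14 and −0.014 in the SNI samples and 0.0038, 0.017 and −0.055 in the control samples, a log2 difference of −0.023 (95% confidence interval −0.18 to 0.13, adjusted p = 0.918). The groups overlapped for both. Of the 9 measured markers of the choroid plexus, an epithelium that expresses Htr2c strongly, 0 passed an unadjusted p of 0.05, and their median was 0.021. The largest positive differences among serotonin receptors were those of the Gs-coupled Htr6 (0.17, SE 0.11) and Htr4 (0.16, SE 0.082). In both, control sample 1 was the lowest sample, at −0.32 for Htr6 and −0.27 for Htr4, and without it the differences were 0.061 and 0.080. Without control sample 2 they were 0.26 and 0.24, both with an unadjusted p under 0.05, and with the hybridization covariate 0.57 and 0.35.

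**Figure D3:**
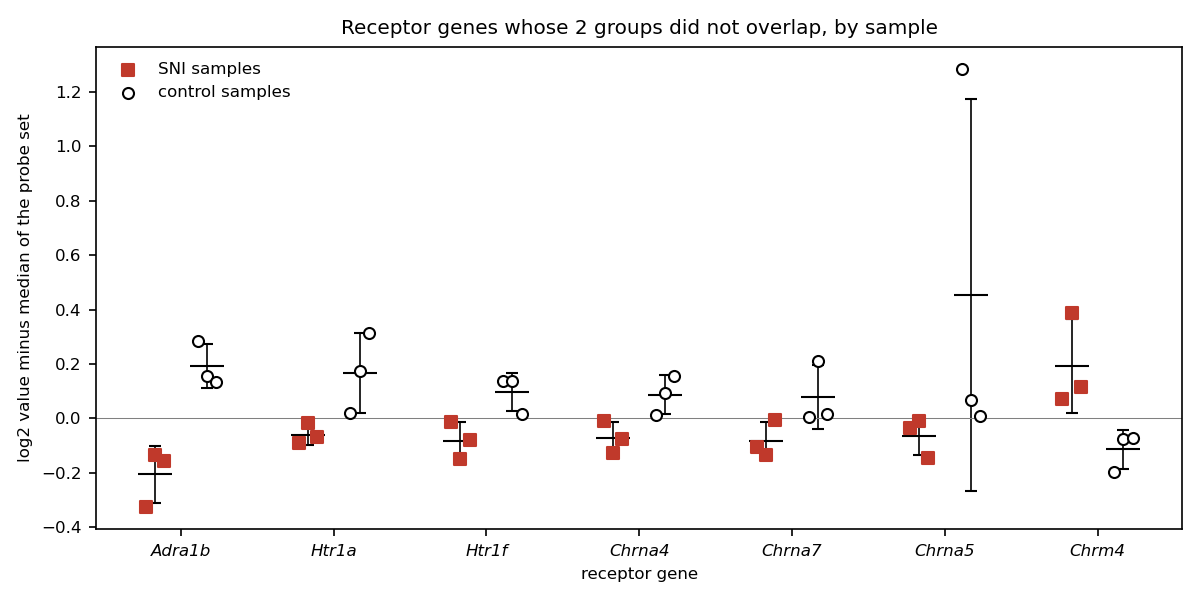
Log2 value minus the median of the probe set (y axis) in each sample for the 7 receptor genes whose groups did not overlap (x axis). Red squares are the 3 SNI samples and open circles the 3 control samples; horizontal bars are means and error bars are SDs. The groups of Adra1b are 0.27 apart, and the mean of Chrna5 in the control group rests on 1 sample at 1.28.

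Among nicotinic subunits, Chrna4 was the only gene with an unadjusted p under 0.05. With the beta-2 subunit it forms the most common high-affinity nicotinic receptor of the brain. Chrna4 was at −0.011, −0.13 and −0.076 in SNI samples 1, 2 and 3, against 0.011, 0.094 and 0.16 in control samples 1, 2 and 3. The groups were separate by 0.023. The log2 difference was −0.16 (SE 0.062, 95% confidence interval −0.30 to −0.016, adjusted p = 0.334), and 7 of the 15 alternatives took the unadjusted p over 0.05. Those included the hybridization controls as a covariate (−0.11) and leaving out SNI sample 2, SNI sample 3, control sample 2 or control sample 3. Its partner Chrnb2 was at 0.050 (95% confidence interval −0.12 to 0.22), with SNI values of −0.023, 0.13 and −0.011 and control values of −0.12, 0.062 and 0.011. The 2 subunits of this receptor thus had differences of opposite sign, of which neither passed adjustment. The difference between these differences was not tested.

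Chrna7, which forms the calcium-permeable homomeric nicotinic receptor, had a log2 difference of the same size as Chrna4, −0.16 (SE 0.074, 95% confidence interval −0.33 to 0.010, adjusted p = 0.406). It was at −0.11, −0.14 and −0.0050 in the SNI samples and 0.0050, 0.21 and 0.015 in the control samples. The groups were separate by only 0.010, between SNI sample 3 and control sample 1. The difference was −0.093 without control sample 2 and ranged over −0.29 to −0.065 in the 15 alternatives, of which 3 gave an unadjusted p under 0.05.

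The largest difference in size among all receptors was that of Chrna5, an accessory nicotinic subunit that raises the calcium permeability of the receptors it joins. It rested on 1 sample. Chrna5 was at −0.035, −0.0084 and −0.15 in SNI samples 1, 2 and 3, against 1.28, 0.067 and 0.0084 in control samples 1, 2 and 3. Control sample 1 stood far above all others. The log2 difference was −0.52 (SE 0.30, 95% confidence interval −1.21 to 0.18, adjusted p = 0.511), and it was −0.10 without control sample 1. The unadjusted p was under 0.05 in 2 of the 15 alternatives, the hybridization controls as a covariate (−1.84) and leaving out control sample 3 (−0.74). In the RefSeq annotation of the rat (GRCr8), Chrna5, Chrna3 and Chrnb4 are neighbors in 1 gene cluster. The high value of control sample 1 was not shared by the neighbors, which were at −0.026 (Chrna3) and −0.25 (Chrnb4) in that sample. The log2 differences were −0.088 for Chrna3 (SE 0.080) and 0.18 for Chrnb4 (SE 0.082, adjusted p = 0.402), so the sign was not the same for the 3 genes. Chrnb4 was at 0.14, 0.13 and −0.0034 in the SNI samples and −0.25, 0.0034 and −0.021 in the control samples, with overlapping groups. Its unadjusted p was under 0.05 in 4 of the 15 alternatives, in which the difference was 0.18 to 0.40. The 5 subunits of the muscle receptor lay between −0.045 and 0.10, and none passed an unadjusted p of 0.05.

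Of the dopamine receptors, none passed an unadjusted p of 0.05. Drd1, the Gs-coupled receptor that is the main D1-like receptor of prefrontal pyramidal neurons, was at −0.022, −0.027 and −0.039 in SNI samples 1, 2 and 3, against 0.17, −0.050 and 0.28 in control samples 1, 2 and 3. The SNI samples lay close together (SD 0.0084), while control samples 1 and 3 were higher and control sample 2 was the lowest of all. The log2 difference was −0.16 (SE 0.084, 95% confidence interval −0.35 to 0.032, adjusted p = 0.462). Without control sample 2 it was −0.25, with an unadjusted p under 0.05, and without both control samples 1 and 3 it was 0.021. Drd2, which is coupled to Gi, was at −0.023, −0.0098 and 0.13 in the SNI samples and 0.0098, 0.17 and −0.15 in the control samples. Its log2 difference was 0.022 (95% confidence interval −0.18 to 0.22). Drd4, a further Gi-coupled receptor of prefrontal neurons, was at 0.062 (SE 0.077, adjusted p = 0.782).

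Drd1, Drd2 and Chrm4 are also expressed strongly in the striatum, which lies close to the PL. Of 14 striatal marker genes, 13 were measured. At an unadjusted p under 0.05, 3 of them (23.1%) were lower in the SNI group, Ppp1r1b, Penk and Tac1, and 0 were higher. Of all genes, 9.19% were lower and 3.96% higher at that threshold. Of the 13, 10 lay below 0, with a median of −0.098. The mean of the list was −0.072 to −0.024 in the SNI samples and 0.066 to 0.098 in the control samples. Drd1 had the same sign as the list and Chrm4 the opposite sign, and the part of striatal cells in these values was not tested. Of 12 microglial markers measured, 9 were higher (75%, against 3.96% of all genes) and 0 lower at an unadjusted p under 0.05. The mean of that list was 0.057 to 0.18 in the SNI samples and −0.16 to −0.077 in the control samples. Of 14 neuronal markers, 2 were higher and 2 lower at that threshold. Most of the neuronal markers had a negative log2 difference, 11 of the 14 (78.6%, against 54.8% of all genes), and their median was −0.12. The mean of the neuronal list was −0.10 to 0.0036 in the SNI samples and −0.056 to 0.12 in the control samples, with overlap. The part of either cell type in the receptor values was not tested.

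Histamine receptors, the smallest of the 6 groups with 4 genes, had the narrowest span. Hrh1, which is coupled to Gq and is the target of sedating antihistamines, had a log2 difference of 0.044 (95% confidence interval −0.074 to 0.16). It was the mean of 3 probe sets that lay between −0.045 and 0.088. Hrh2, coupled to Gs, was at −0.038 (95% confidence interval −0.16 to 0.086). Hrh3, the Gi-coupled autoreceptor that also limits the release of other transmitters, was at 0.0076, −0.022 and 0.031 in the SNI samples and −0.12, 0.061 and −0.055 in the control samples. This gave a log2 difference of 0.045 (95% confidence interval −0.10 to 0.19). All 4 histamine receptor genes had an adjusted p of 0.762 or more.

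The probe sets of a receptor did not always give the same answer. Of the 52 genes, 13 were read by more than 1 probe set, and for 8 of them the probe sets lay on both sides of 0. Fitted on their own, 7 of the 71 probe sets had an unadjusted p under 0.05, against 13.1% of all probe sets. Of these, 1 was higher in the SNI group (5.6% of all probe sets) and 6 were lower (7.47% of all probe sets), and 0 passed adjustment, against 0.0322%. The smallest adjusted p was 0.107, that of 1 of the 4 probe sets of Htr2a (1369125_at). This probe set was at −0.16, −0.20 and −0.11 in SNI samples 1, 2 and 3, against 0.19, 0.11 and 0.19 in control samples 1, 2 and 3. The groups were clearly separate, with a log2 difference of −0.32 (SE 0.061). The other 3 probe sets of Htr2a lay at −0.042, −0.0064 and 0.071, each with overlapping groups.

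For Drd1, both probe sets lay below 0, and 1 of them had an unadjusted p under 0.05. The difference between these probe sets was not tested. The probe set 1368479_at was at −0.13, −0.029 and −0.0071 in the SNI samples and 0.31, 0.0071 and 0.27 in the control samples, a log2 difference of −0.25 (SE 0.092, adjusted p = 0.294). The second, 1368478_at, was at −0.068 (SE 0.10, adjusted p = 0.843). For Hrh3 the probe set 1368451_at was higher in every SNI sample (0.023, 0.047 and 0.054) than in any control sample (−0.15, −0.023 and −0.12). The second one, 1388080_a_at, was at −0.051. For Htr2c the pair lay at 0.11 and −0.15. By contrast the pair of Htr4 gave 0.15 and 0.16. Where the probe sets of a gene lie along its transcripts was not examined. The share of different transcript forms in these values was therefore not tested.

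**Figure D4:**
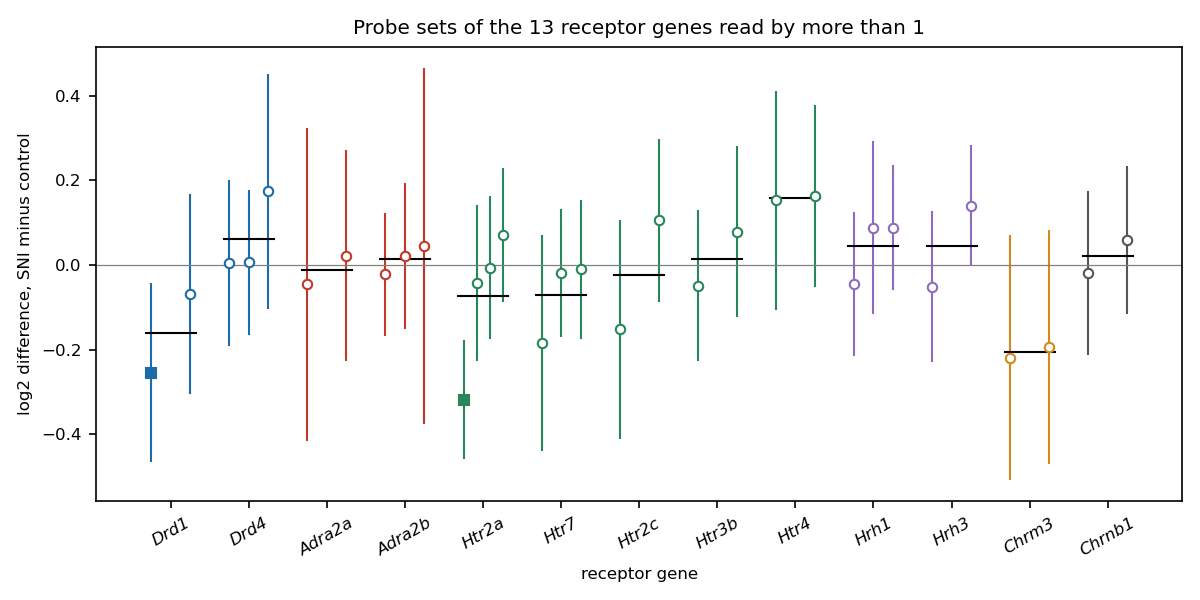
SNI minus control log2 difference (y axis) of each probe set of the 13 receptor genes read by more than 1 (x axis). Points are limma estimates with 95% confidence intervals, filled squares mark an unadjusted p under 0.05, and black bars are the means over the probe sets; for Htr2a, 1 of the 4 lies at −0.32 and the other 3 lie between −0.042 and 0.071.

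The other genes of these pathways were read from lists. Of the genes that make, transport and break down dopamine and noradrenaline, 12 of 14 were measured and 0 passed an unadjusted p of 0.05. Th, tyrosine hydroxylase, the rate-limiting enzyme of catecholamine synthesis, was the nearest to it, at 0.18 (SE 0.11, adjusted p = 0.507), and its groups overlapped. Of the serotonin list, 2 of 4 genes were measured, Slc6a4 and Fev, neither of which encodes a synthesis enzyme. Both genes of the histamine list were measured. None of these genes passed. Fev, a transcription factor of serotonin neurons, was at 0.16 (SE 0.10), and Hnmt, which inactivates histamine, at −0.12 (SE 0.068). Of the acetylcholine list, 5 of 7 were measured, and 1 was higher at an unadjusted p under 0.05 (20%, against 3.96% of all genes). This was Colq, the collagen that anchors acetylcholinesterase, at 0.19 (SE 0.061, adjusted p = 0.268), with 0.13, 0.15 and 0.031 in the SNI samples and −0.16, −0.071 and −0.031 in the control samples. Of the nicotinic assembly factors and modulators, 7 of 9 were measured and 1 was lower (14.3%, against 9.19% of all genes). Lypd6b, a nicotinic modulator of the Ly6 family, was at −0.29 (SE 0.087, adjusted p = 0.245), with −0.19, −0.13 and −0.011 in the SNI samples and 0.011, 0.22 and 0.30 in the control samples.

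Among the proteins that act directly behind the receptors, a larger share of genes passed an unadjusted p of 0.05 than among the receptors. These lists were chosen with earlier results of these data known, so the shares describe them and test nothing. Of the neuronal markers, 28.6% passed, against 13.2% of all genes. Of 17 G protein subunits measured, 1 was higher (5.88%, against 3.96% of all genes) and 5 were lower (29.4%, against 9.19%). The mean of the list was −0.053 to −0.000088 in the SNI samples, against 0.094, −0.017 and 0.056 in control samples 1, 2 and 3. Control sample 2 thus lay within the range of the SNI samples. Gnaq, the alpha subunit through which alpha-1, 5-HT2 and M1 receptors raise calcium, had a log2 difference of −0.21 (SE 0.071, adjusted p = 0.291). It was at −0.17, −0.0090 and −0.20 in the SNI samples and 0.16, 0.0090 and 0.081 in the control samples. Gnai1 and Gnao1, alpha subunits of the Gi and Go proteins behind D2-like, alpha-2, 5-HT1 and M4 receptors, were at −0.33 (SE 0.10, adjusted p = 0.245) and −0.16 (SE 0.054, adjusted p = 0.291). For Gnai1 the SNI samples lay at −0.11 to −0.022 and control samples 1, 2 and 3 at 0.35, 0.022 and 0.41. Control sample 2 thus lay next to the SNI samples. Gna14, a relative of Gnaq, was at −0.47 (SE 0.20, adjusted p = 0.360), and its groups overlapped. Gnb5, a beta subunit that pairs with RGS proteins, was at −0.14 (SE 0.049, adjusted p = 0.305). The higher one was Gng13, a gamma subunit, at 0.23 (SE 0.080, adjusted p = 0.303).

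Of 12 receptor kinases, arrestins and receptor partners, all were measured, and 4 were lower (33.3%, against 9.19% of all genes) and 0 higher. Ppp1r1b, which encodes DARPP-32, the phosphatase inhibitor switched on by D1 receptors, was at −0.13, −0.072 and −0.23 in the SNI samples and 0.18, 0.072 and 0.099 in the control samples. Its log2 difference was −0.26 (SE 0.063, adjusted p = 0.207), and it is also 1 of the striatal markers above. Grk5 and Grk4, kinases that desensitize G protein-coupled receptors, were at −0.23 (SE 0.081) and −0.17 (SE 0.054). Caly, a vesicle protein first described as a partner of the D1 receptor, was at −0.15 (SE 0.053). No gene of any of these lists passed adjustment over all genes.

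**Figure D5:**
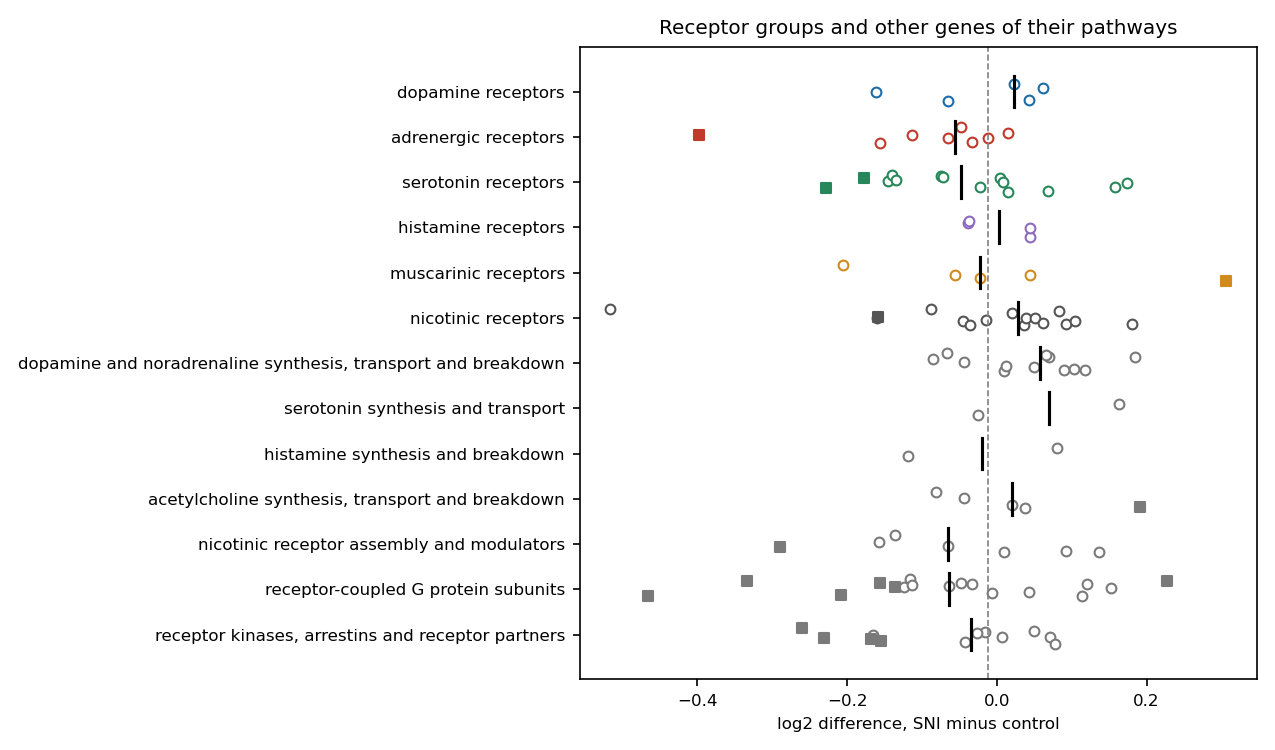
SNI minus control log2 difference (x axis) of each gene in the 6 receptor groups and in 7 lists of other genes of their pathways (y axis). Points are genes, filled squares mark an unadjusted p under 0.05, black bars are the medians, and the dashed line is the median of all genes (−0.011). Of the 17 G protein subunits, 5 are filled below 0, against 4 of the 52 receptors. The lists were chosen with earlier results of these data known.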

How the data were processed

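mRNA of the PL was measured on Affymetrix rat expression arrays in 3 SNI and 3 control samples. The authors made log2 values by RMA with quantile normalization. As deposited, these log2 values have a median of 0 for every probe set (within 4.78e-07), a centring that no source used here describes, so no filter on dim probes was possible. The authors' software versions are not given. Of 31099 probe sets, 57 array controls were left out, and 20826 carried 1 gene symbol in the platform annotation. All 52 receptor symbols matched RefSeq.

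Groups were compared over all 14217 genes with limma 3.58.1 in R 4.3.3 (lmFit and eBayes, no covariate, Benjamini-Hochberg adjustment), as the methods name limma. With 3 samples a group, the smallest p that an exact permutation test can reach is 0.1. The fit was tested on simulated data. Plots used Python 3.11.15 and matplotlib 3.10.9. Members and lists were chosen with earlier results of these data known. Named were the receptors with an unadjusted p under 0.05, the 2 of each system with the smallest p, 12 well-known receptors and, from the pathway lists, genes with an unadjusted p under 0.05 and the gene with the smallest p. Chrna5, Chrna3, Htr4, Htr6, Htr1b, Htr1d and Adra1a, and the probe sets of genes with several, were named after their values were seen. The alternatives comprised robust variance, aligned array medians, repeated quantile normalization, the replicate block, a hybridization covariate and an unpaired t-test. They further comprised the median of probe sets, single probe sets, an unadjusted p under 0.01 and each sample left out.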

Additional observations from a re-analysis of the deposited data

How the results depend on the processing

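No receptor gene passed an adjusted p of 0.05 under any of the alternatives. The count of receptor genes at an unadjusted p under 0.05 (5, of which 1 higher and 4 lower) was 2 at an unadjusted p under 0.01 (1 higher, 1 lower), 9 when the mean of the hybridization controls was a covariate (6 higher) and 3 to 9 when 1 sample was left out (1 to 6 higher, 1 to 7 lower). The share of receptors past that threshold was above that of all genes in 4 settings: the covariate (17.3% against 8.47%), without control sample 1 (15.4% against 11.9%), without SNI sample 1 (9.62% against 8.28%) and without both control samples 1 and 3 (23.1% against 17.5%). The count was 9 without control sample 2, 8 without control sample 1 and 3 without SNI sample 2 or SNI sample 3. With quantile normalization repeated, 2 were higher. With control samples 1 and 3 both left out, added after the data were seen, 12 were lower and 0 higher; the lone control sample was then assumed to vary like the SNI samples. Over all genes the count of 1870 became 1204 with the covariate, 589 at an unadjusted p under 0.01 and 1146 to 3285 with 1 sample left out (3285 without control sample 2), and 4055 probe sets passed on their own. After adjustment the count of 0 became 2 with the covariate, 3 without control samples 1 and 3, 10 for single probe sets and 0 to 4 with 1 sample left out.

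Without control samples 1 and 3 the system medians were −0.059 (dopamine), −0.18 (adrenergic), −0.12 (serotonin), −0.048 (histamine), 0.072 (muscarinic) and −0.10 (nicotinic). With the covariate they were 0.19 (adrenergic), 0.10 (serotonin) and 0.18 (nicotinic). The histamine median was −0.037 over single probe sets. With 1 sample left out the medians ranged over −0.056 to 0.086 (dopamine), −0.13 to 0.015 (adrenergic), −0.066 to −0.035 (serotonin), −0.011 to 0.037 (histamine), −0.050 to 0.049 (muscarinic) and −0.052 to 0.093 (nicotinic). The sign of some differences turned, also for Htr1a and Lypd6b, which had an unadjusted p under 0.05 in the main comparison. With the covariate Htr1a was at 0.069, Adra1d at 0.20, Adra2a at 0.32, Adrb1 at 0.49, Htr1d at 0.039, Adra1a at 0.16 and Lypd6b at 0.046. Without control samples 1 and 3 Drd1 was at 0.021, Drd2 at −0.13, Chrm1 at 0.10, Chrnb2 at −0.029, Hrh3 at −0.056, Htr4 at −0.00060 and Fev at −0.072. Adra2a was at 0.00028 with quantile normalization repeated. Among the named receptors only, ranges that crossed 0 with 1 sample left out were listed. These were −0.013 to 0.11 for Drd4, −0.056 to 0.10 for Drd2, −0.068 to 0.032 for Htr2c and −0.13 to 0.080 for Adra2a. The others were −0.12 to 0.082 for Adrb1, −0.082 to 0.034 for Chrm1, −0.0031 to 0.090 for Chrnb2 and −0.10 to 0.018 for Adra1a. The covariate did not overlap between the groups, so with it the group difference could hardly be told apart from that of the hybridization controls. The cause of these changes was not tested. Samples of the same number were not correlated (0.0085, −0.0098 and −0.069), and with the replicate block 4 receptor genes had an unadjusted p under 0.05, Chrna4 no longer among them. For genes read by several probe sets, the fit of single probe sets gives no single value. With centred values, signal over background could not be judged.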

Other observations

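The receptors were also grouped by the way they signal, a grouping made after the data were seen. The 10 genes coupled to Gq had a median log2 difference of −0.052, with 8 of 10 below 0. The 16 coupled to Gi or Go had a median of −0.0038, with 8 of 16 below 0. The 8 coupled to Gs had a median of −0.036, with 5 of 8 below 0, and the 18 ion channel subunits had a median of 0.018, with 8 of 18 below 0. Of the 5 receptor genes with an unadjusted p under 0.05, 3 were coupled to Gi or Go (Chrm4, Htr1a and Htr1f). Of the rest, 1 was coupled to Gq (Adra1b) and 1 was a channel subunit (Chrna4). These were 18.8% of the Gi or Go class, 10% of the Gq class and 5.56% of the channel subunits, against 13.2% of all genes. The classes were not tested against each other. Marker genes of the cell bodies that make monoamines and acetylcholine had a median of 0.054, and 0 of the 8 measured passed an unadjusted p of 0.05. Of 11 markers of endothelium and pericytes, 2 were higher at an unadjusted p under 0.05 (18.2%, against 3.96% of all genes) and 0 lower. Of 9 astrocyte markers, 1 was higher (11.1%) and 0 lower. Of 8 oligodendrocyte markers, 1 was lower (12.5%, against 9.19% of all genes) and 0 higher.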
